A study of Mus musculus with 2 samples.

Results

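Spermatocytes are the germ cells of the testis in meiosis, and the cells described here are the spermatocytes in which transcripts of meiotic prophase outnumbered transcripts of the approaching division. They were chosen from 2 single-cell tables of mouse testis, 107 of 2771 cells at 2 months and 1208 of 6823 cells at 24 months, 1315 of 9594 in all. A cell was kept if it held at least 3215 counts (the lowest total in the young table), at most 25% mitochondrial counts, less than 0.5% of the Leydig transcripts Cyp17a1, Ptgds, Hsd3b6 and Star, and less than 0.3% of the protamine and transition protein transcripts Prm1, Prm2, Tnp1 and Tnp2. It was a spermatocyte if Sycp1, Sycp2, Sycp3, Syce1, Pou5f2 and Ccna1 together gave more counts than the spermatid genes Acrv1, Spaca1, Spaca3, Spaca7, Tex36 and Lyzl6, with at least 3 counts over both sums. Spermatocytes with more counts of Sycp2, Tdrd1, Tdrd5, Adad2, Pcgf5 and Tesmin than of Ccna1, Cdk1, Aurka and Ccnb1 are called earlier spermatocytes below, and the rest later spermatocytes. All these values chose the cells, so differences between earlier and later spermatocytes are given as a description.

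The study dissociated testes of 2-month-old ("young") and 24-month-old ("aged") mice and made a BD Rhapsody whole-transcriptome library for each age. The labels give no strain, genotype or treatment that differs between the ages, and every mouse received Avertin anaesthesia before dissection. They call the cells stroma cells, while these members carry germ cell transcripts. Each age has 1 library and the number of mice behind it is not given in the labels, so nothing below has a replicate check and age, library and preparation cannot be told apart.

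In meiotic prophase the chromosomes pair along the synaptonemal complex, a protein ladder, while programmed DNA breaks are repaired and some become crossovers. Leptotene and zygotene are its early stages and pachytene, with full pairing, is the long middle stage. During pachytene the X and Y chromosomes, which pair only over a short region, are silenced. Mouse spermatocytes then also make large amounts of piRNAs, small RNAs bound by PIWI proteins, and build up transcripts for meiotic division and for the future sperm.

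The young table held 53413783 counts with a median of 16582 per cell, and the aged one had 66390904 with a median of 7488. The count minimum removed 2643 aged cells (38.7%) and 0 young cells, and 2770 young and 4180 aged cells passed all limits on quality. The members were deeper in the young library, with a median of 30335 counts and 6202 genes per cell, than in the aged library, with 16040.5 counts and 4796 genes. After each cell was thinned to 3215 counts the medians were 1919 and 1929 genes. The estimated part of the members' counts from free RNA was 5.84% young and 3.19% aged. A doublet caller marked 0 young and 10 aged members, and 35 cell labels occurred in both tables. Levels are CPM, the counts of a gene scaled to the total count of the summed class, and all 95% intervals cover counting error only.

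The 5 genes given as markers of these cells were all higher in earlier than in later spermatocytes of both libraries. Sycp2, a protein of the chromosome axis, stood at 604.8 CPM in young members and 254.5 in young later cells, and at 776.7 and 269.0 CPM in the aged library. Tesmin, a testis metallothionein-like protein, stood at 394.7 against 126.8 CPM in the young library and at 494.5 against 137.0 in the aged. Tdrd1, a tudor protein of the piRNA pathway, stood at 302.6 against 66.5 CPM and at 398.8 against 75.3 CPM. These 3 genes and Adad2, a germ cell RNA-binding protein with 63.9 against 9.29 CPM young and 108.6 against 14.6 CPM aged, were part of the rule. Piwil1, the PIWI protein of pachytene piRNAs, was not in the rule, and it stood at 1128 against 260.2 CPM in the young library and at 1394 against 309.7 CPM in the aged.

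**Figure D1:**
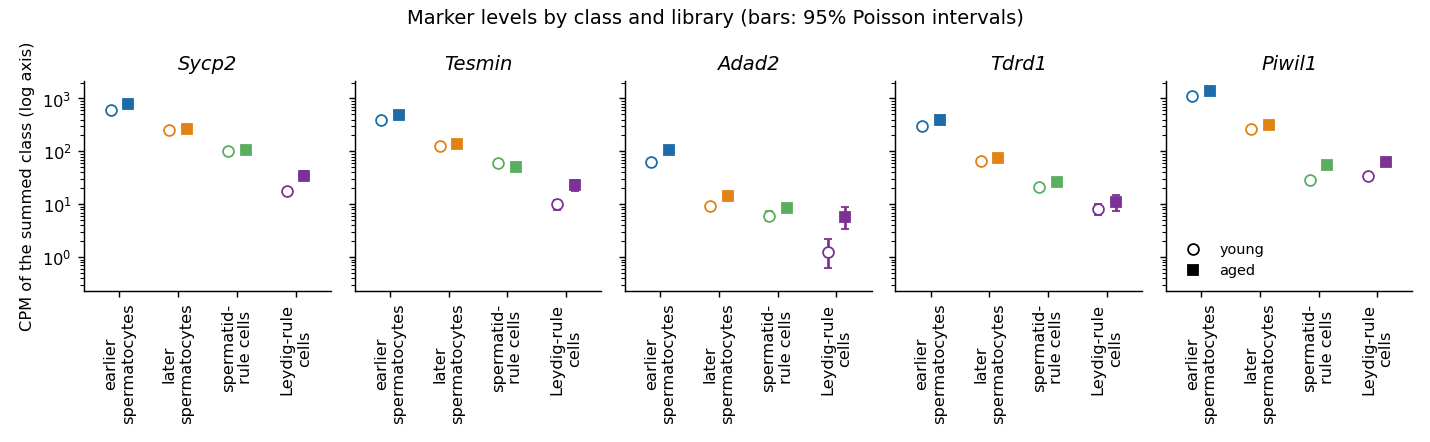
Levels (CPM, log axis) of the 5 marker genes in the summed cells of 4 classes in each library, with 95% counting intervals as bars. Earlier spermatocytes carry the highest level of each gene in both libraries, as with Piwil1 at 1128 CPM young and 1394 CPM aged.

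Within the members the markers were widely but not evenly detected. Counts of Piwil1 occurred in 106 of 107 young members and 1190 of 1208 aged members, and its level in single cells had a 5th percentile of 557.3, a median of 1003 and a 95th percentile of 2241 CPM in young members and of 504.4, 1405 and 2604 CPM in aged members. With all cells thinned to 3215 counts, 93.5% of young and 95.8% of aged members kept a Piwil1 count, against 53% and 57.5% of later spermatocytes and 8.99% and 10.8% of cells over the Leydig limit, which should lack the gene. The share of members with Piwil1 thus lay far above that of Leydig-rule cells. Adad2 was found in fewer cells, with counts in 77 of 107 young and 851 of 1208 aged members, and in 26.2% and 31.4% after thinning, against 0.432% and 1.5% of thinned Leydig-rule cells.

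Genes of leptotene and zygotene were looked at because the working name of these cells holds the word early. Of 9 measured genes of a list of early meiosis, 3 were higher and 2 lower in earlier than in later spermatocytes. The higher ones were Meiob, Hormad1 and Spo11. These counts are not far from the 22.2% higher and 17.1% lower of all 11396 genes, so they do not set the list apart. Hormad1, an axis protein, stood at 69.1 against 43.2 CPM in the young library and at 84.1 against 43.1 CPM in the aged. Genes of meiotic entry and of the first breaks were nearly missing. Dmc1, the meiotic strand exchange protein, was counted in just 1 of 107 young members and 16 of 1208 aged ones, and Prdm9, which places the DNA breaks, also in 1 and 16. Stra8, the factor that starts meiosis, had no count in the young members, which allows up to 0.909 CPM, and 37 counts from 11 aged members. Transcripts typical of pachytene were abundant: Ldhc, the testis lactate dehydrogenase, stood at 5538 CPM young and 4751 CPM aged, and Ybx2, a protein that stores mRNA, at 5413 and 6190 CPM. The members are therefore called earlier only against the later class, with no stage name.

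The promoters of the 5 marker genes are shown because the genes are high in the same cells, and A-MYB (Mybl1), a transcription factor known to drive pachytene genes in the mouse, was measured in the members at 106.3 CPM young and 102.0 CPM aged. Each line is 250 bases before to 50 bases after the RefSeq start on GRCm38.p6, 5′ to 3′ on the gene's strand. Capitals mark matches on either strand to the MYB core, searched as TAACNG and CAACNG. The windows are chr2:178407609-178407908 on the minus strand for Sycp2 and, on the plus strand, chr19:3388607-3388906 for Tesmin, chr8:119612463-119612762 for Adad2, chr19:56825959-56826258 for Tdrd1 and chr5:128735996-128736295 for Piwil1.
Sycp2: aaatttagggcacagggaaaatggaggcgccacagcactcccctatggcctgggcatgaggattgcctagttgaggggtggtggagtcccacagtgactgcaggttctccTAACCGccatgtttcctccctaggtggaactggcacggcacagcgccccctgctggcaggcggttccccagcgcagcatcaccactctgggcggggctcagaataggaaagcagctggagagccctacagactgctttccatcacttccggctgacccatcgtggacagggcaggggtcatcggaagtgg
Tesmin: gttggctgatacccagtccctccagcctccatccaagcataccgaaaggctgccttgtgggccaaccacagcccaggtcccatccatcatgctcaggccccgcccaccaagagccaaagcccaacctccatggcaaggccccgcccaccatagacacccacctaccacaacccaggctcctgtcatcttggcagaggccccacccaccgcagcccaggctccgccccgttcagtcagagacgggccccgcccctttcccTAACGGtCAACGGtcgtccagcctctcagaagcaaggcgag
Adad2: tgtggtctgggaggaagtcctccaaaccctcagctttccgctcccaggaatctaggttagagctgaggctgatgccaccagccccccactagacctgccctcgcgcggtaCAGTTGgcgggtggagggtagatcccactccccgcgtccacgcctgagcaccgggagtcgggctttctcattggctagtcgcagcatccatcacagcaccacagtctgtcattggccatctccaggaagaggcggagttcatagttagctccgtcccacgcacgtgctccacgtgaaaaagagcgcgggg
Tdrd1: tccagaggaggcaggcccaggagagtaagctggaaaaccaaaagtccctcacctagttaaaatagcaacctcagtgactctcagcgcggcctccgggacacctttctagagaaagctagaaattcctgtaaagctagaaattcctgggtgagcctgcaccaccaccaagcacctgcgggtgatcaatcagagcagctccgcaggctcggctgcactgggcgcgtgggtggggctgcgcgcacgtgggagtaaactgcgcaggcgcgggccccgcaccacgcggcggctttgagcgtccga
Piwil1: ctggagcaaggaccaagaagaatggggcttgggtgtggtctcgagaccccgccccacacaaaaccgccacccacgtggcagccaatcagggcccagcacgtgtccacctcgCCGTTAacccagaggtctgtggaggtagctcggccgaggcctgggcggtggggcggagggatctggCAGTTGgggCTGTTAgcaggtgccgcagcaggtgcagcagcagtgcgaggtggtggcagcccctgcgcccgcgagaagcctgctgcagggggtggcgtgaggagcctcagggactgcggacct

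Sycp2 held 1 match, Tesmin 2, Adad2 1, Piwil1 3 and Tdrd1 0. Over all 32851 promoters of the same length, 49.7% held at least 1 match and 4.73% held 3 or more. Among genes higher in earlier than later spermatocytes with a promoter in the table, 45.7% (882 of 1928) held a match, against 51.2% (720 of 1405) of genes higher in later cells. The motif was thus no more frequent in the promoters of genes higher in earlier cells than in promoters at large.

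Of 11396 genes with enough counts, 22.2% were at least 1.5-fold higher in earlier than in later spermatocytes in both libraries and 17.1% at least 1.5-fold lower, with 50 or more counts over the pair of classes. The rule used this contrast, so the counts describe the members and support nothing. By the naming rule (the 10 genes furthest apart in each direction among well-counted genes called in both libraries, rule genes left out), the higher genes were Tex19.2, Hmgb2, Mbd1, Skap2, Rnps1, Tex101, Fbxo3, Taf2, Ssb and Pou2f2. Hmgb2, a chromatin protein of the high mobility group with near-identical relatives, stood at 187.2 CPM in young members against 26.3 in later cells, and at 226.5 against 37.3 CPM in the aged library. Tex19.2, a germ cell protein, stood at 57.5 against 8.65 CPM young and 66.6 against 9.69 CPM aged. Tex101, a germ cell surface protein, stood at 222.9 against 45.9 CPM and at 299.2 against 50.4 CPM.

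The genes furthest lower in earlier spermatocytes were Elfn1, Rrm2, Cdc25a, Syne2, Spc25, Kif23, Prss46, Ngfr, Rhno1 and Plk1. Cdc25a, a phosphatase that activates cyclin-dependent kinases, stood at 33.6 CPM in young members against 259.4 in later cells, and at 29.1 against 236.6 CPM in the aged library. Plk1, a kinase of cell division, stood at 62.4 against 368.5 CPM young and 46.2 against 344.6 CPM aged. Spc25, a kinetochore subunit, stood at 19.4 against 172.3 CPM young and 22.1 against 147.9 CPM aged. These 3 division genes lay several-fold lower in earlier cells, and the whole division list is described further on.

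**Figure D2:**
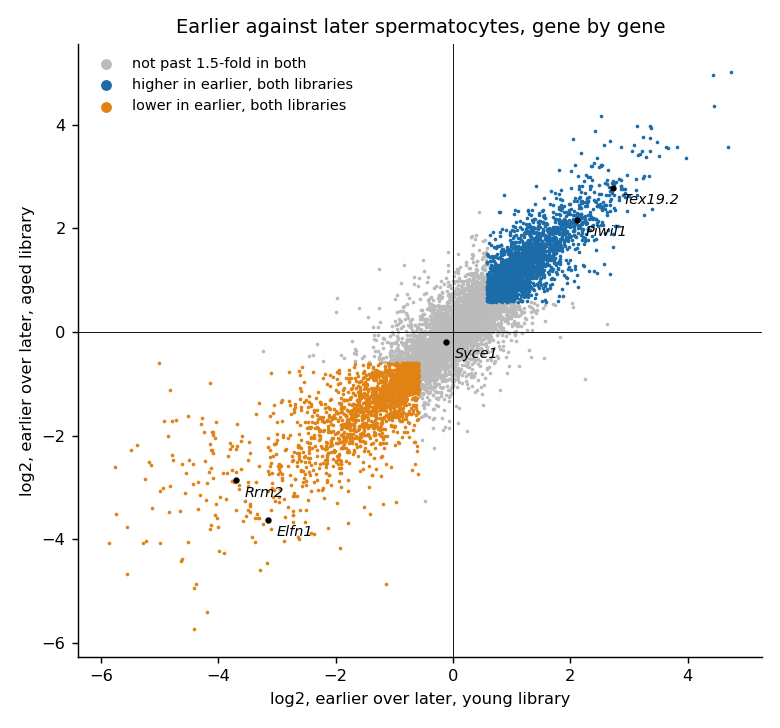
Log2 difference of earlier minus later spermatocytes for each measured gene, young library on the x axis and aged library on the y axis, coloured where past 1.5-fold in both libraries and with 5 genes marked, Tex19.2, Piwil1, Syce1, Rrm2 and Elfn1. Most genes lie near the diagonal, and 21 genes were called in opposite directions in the libraries.

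Part of the chromosome pairing machinery was higher in the earlier cells. Of 15 measured genes of the synaptonemal complex and axis, 8 were higher and 2 lower, against 22.2% and 17.1% of all genes. Sycp1, Sycp2 and Sycp3, among the 8, are in the rule, so the count is a description only. Sycp1, the transverse filament of the complex and a gene of the rule, stood at 184.8 CPM against 69.7 in young later cells and at 291.8 against 72.4 in the aged library. Tex12, a protein of its central element, stood at 23.0 against 2.51 CPM young and 37.1 against 3.39 CPM aged. Syce1, another central element protein in the rule, was not called, at 859.6 against 931.7 CPM and 821.5 against 932.8 CPM. Smc3, a cohesin subunit, was lower in earlier cells, at 3.33 against 42.1 CPM and 9.51 against 38.5 CPM. The list therefore did not move as a block.

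Of 15 genes for DNA breaks and strand exchange, 6 were higher and 3 lower in earlier cells, against 22.2% and 17.1% of all genes. Spo11, the enzyme that makes the breaks, stood at 163.6 against 96.7 CPM young and 174.3 against 107.9 CPM aged. Rpa1, which coats single-stranded DNA, was lower at 201.1 against 369.0 CPM and 162.3 against 337.6 CPM. Of 12 crossover genes 4 were higher and 1 lower, not far from the same shares of all genes. Ccnb1ip1 (Hei10), a ligase needed for crossovers, was at 13.3 against 0.590 CPM young and 23.0 against 1.09 CPM aged. Hfm1, a helicase needed for crossovers, was at 41.2 against 10.4 CPM and 67.3 against 12.1 CPM.

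The piRNA pathway had 13 of 26 genes higher in earlier cells and 1 lower, against 22.2% and 17.1% of all genes. Tdrd1, Tdrd5 and Adad2, among the 13, are in the sum that chose the members, so the count is a description only. Besides Piwil1, Tdrd1, Tdrd5 and Adad2, the higher genes included Piwil2, at 123.6 against 57.8 CPM young and 144.6 against 60.4 CPM aged, and Pld6, a mitochondrial nuclease of piRNA biogenesis, at 386.5 against 153.3 CPM and 425.7 against 169.9 CPM. Mael, a piRNA pathway protein of germ cells, was not called, at 2974 against 2889 CPM and 3100 against 3086 CPM. Ddx4, the germ cell RNA helicase, was not called either, at 450.1 against 669.5 CPM and 519.6 against 641.2 CPM. Of 29 regulators of meiotic transcription and RNA, 8 were higher and 3 lower, near the 22.2% and 17.1% of all genes. Dazl, an RNA-binding protein of germ cells, stood at 41.5 against 7.86 CPM young and 90.4 against 9.43 CPM aged.

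Cell cycle and division genes leaned the other way, with 14 of 31 lower in earlier cells and 5 higher, against 17.1% and 22.2% of all genes. Their medians were -0.48 young and -0.54 aged on the log2 scale. Of the lower genes, Ccnb1, Ccna1, Cdk1 and Aurka were in the rule. Ccne2, a cyclin of the entry to DNA synthesis, was higher at 40.3 against 3.59 CPM young and 56.3 against 4.39 CPM aged. Its partner Cdk2, which is also needed for meiotic pairing in the mouse, was higher at 249.6 against 96.1 CPM and 282.7 against 118.5 CPM. Of 29 polycomb and chromatin genes 11 were higher and 3 lower, against the same 22.2% and 17.1%, and the higher gene Pcgf5 is in the rule. Rnf2, a ligase that marks histone H2A, was higher at 38.2 against 8.65 CPM and 64.3 against 9.09 CPM. H2afx, the histone that is phosphorylated on the silenced sex chromosomes, was also higher, at 88.7 against 56.4 CPM and 115.0 against 62.0 CPM.

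Transcripts of the X chromosome were nearly missing in the earlier spermatocytes. They made up 0.0677% (95% interval 0.0649 to 0.0705) of the counts of young members and 0.0676% (0.0665 to 0.0688) of those of aged members, 38.2 and 36.1 times less than in Leydig-rule cells, where they made up 2.58% and 2.44%. The share was 0.110% and 0.0997% in later spermatocytes and 0.860% and 0.909% in cells that passed the same limits but had more spermatid than meiotic counts. In single cells the median X share was 0.0601% in young and 0.0481% in aged members, close to the 0.0673% and 0.0562% of later cells, but the 95th percentile was 0.109% and 0.123% against 0.477% and 0.458%. Later cells thus differed from members mainly by an upper tail. No autosome had a share as far below that of Leydig-rule cells as the X. The share of counts from each of the 19 autosomes in members was 0.560 to 1.82 times that in Leydig-rule cells in the young library and 0.555 to 1.78 times in the aged. The members' X share was nearly equal at the 2 ages, but this rests on a small number of cells of high X share described below. Without them it was 0.0637% young and 0.0516% aged. With every cell thinned before the rule was applied the shares were 0.108% and 0.102%, and without unnamed gene models and pseudogenes they were 0.0389% and 0.0418%.

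**Figure D3:**
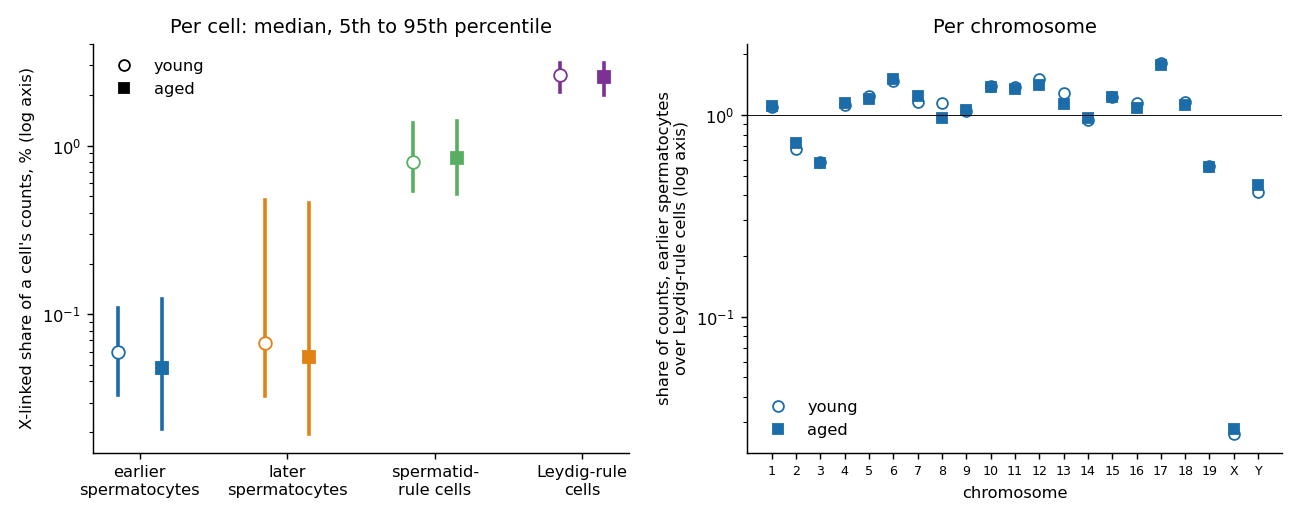
Left, X-linked share of a cell's counts (percent, log axis), with the median as a point and the 5th to 95th percentile as a bar for each class and library. Right, share of counts of each chromosome in earlier spermatocytes over that in Leydig-rule cells (ratio, log axis): the autosomes lie between 0.555 and 1.82 and the X at 0.0262 young and 0.0277 aged.

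At 10 CPM or more, 12 X-linked genes were seen in young and 8 in aged members, against 272 and 275 in Leydig-rule cells. The X-linked genes given next were chosen after their values were seen. Uba1, a ubiquitin-activating enzyme, stood at 3.63 CPM in the young members and at 4.70 in the aged, against 687.0 and 614.4 CPM in Leydig-rule cells. Ndufa1, a subunit of respiratory complex I, stood at 20.3 and 35 CPM against 791.3 and 664.7 CPM. Emd, a protein of the nuclear envelope, was an exception, at 60.3 and 47.0 CPM in members against 77.8 and 72.6 CPM in Leydig-rule cells. Y-linked counts were 0.0121% of the total in young and 0.0107% in aged members, and 0.0294% and 0.0238% in Leydig-rule cells.

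Several X-linked genes have an autosomal copy that is used in the testis, and the copies were well expressed in the members. Pgk2, the testis phosphoglycerate kinase, stood at 265.6 CPM in the young members and at 202.7 in the aged, against 71.2 and 69.1 CPM in Leydig-rule cells. Its X-linked parent Pgk1 stood at 2.12 and 1.11 CPM in members against 145.3 and 138.2 CPM in Leydig-rule cells. Rpl10l, the copy of a ribosomal protein gene, stood at 561.8 and 542.6 CPM in members against 38.2 and 57.3 CPM, while its parent Rpl10 stood at 0.606 and 0.455 CPM against 121.5 and 79.9 CPM. Reads shared by such near-identical genes make these values uncertain, since the counting of shared reads is not given in the sources used here. Against later cells the copies did not share a direction, with 1 of 11 higher and 3 lower in earlier spermatocytes, against 22.2% and 17.1% of all genes. Pgk2 was among the lower, at 265.6 against 491.8 CPM young and 202.7 against 486.2 CPM aged.

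A small number of members did not show the low X share. With a limit of 0.5% set after the values were seen, 1 young and 29 aged members (2.40%) lay above it, and the highest share among the other members was 0.273% young and 0.490% aged. The 29 aged cells had a median of 4684 counts, and Dazl was found in 25 of them, Dmrt1, a factor of spermatogonia, in 16, Stra8 in 11, Dmc1 in 10 and Piwil1 in 11. All Stra8-positive aged members were thus in this set. The young cell had 30 counts of the chemokine Ccl4, 16 of the macrophage lysozyme Lyz2 and 0 of Piwil1. Markers of other germ cells were present in the members as a whole. Summed spermatogonial markers stood at 1342 CPM young and 1112 CPM aged, nearly all of it Dmrtb1 at 1328 and 1078 CPM, which was also at 1491 and 1445 CPM in later cells, while Zbtb16 and Stra8 were at 0 in young members. Round spermatid markers stood at 469.5 and 439.4 CPM, mostly Acr, and elongating spermatid markers at 477.6 and 175.2 CPM. Summed Leydig markers stood at 200.2 CPM young and 68.1 CPM aged, Sertoli markers at 61.5 and 31.3 CPM, with Sox9 at 0 in young members, macrophage markers at 16.1 and 8.39 CPM, fibroblast markers at 2.73 and 6.83 CPM and endothelial markers at 15.7 and 17.7 CPM, mostly Pecam1. The part of other cells in these levels was not tested.

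Earlier spermatocytes made up 3.86% (95% interval 3.18 to 4.65) of kept cells in the young library and 28.9% (27.5 to 30.3) in the aged, a ratio of 7.48. Among spermatocytes alone they made up 14.5% (12.1 to 17.3), 107 of 737, and 49.3% (47.3 to 51.3), 1208 of 2449, a ratio of 3.4. Whether this reflects the animals or the dissociation and capture of each suspension cannot be told apart. Few cells lay at the cut between the classes: 9 young and 69 aged members were inside it by 1 to 3 counts, and 7 young and 108 aged later cells were outside by 0 to 3. When a member had to lead by a factor of 2, the share of spermatocytes was 8.82% young and 40.8% aged, and the share of kept cells 2.35% and 23.9%.

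Among themselves the members were ordered by the part of the first sum of the rule in both sums, and split into 3 bins that hold equal parts of the members when both libraries weigh the same. The bin furthest from the later class held 25.2% of young and 42.5% of aged members. The bin nearest to it held 43.9% and 22.6%. The rule used these sums, so the shares are a description only. In this furthest bin Dazl stood at 105.3 CPM young and 161.5 CPM aged, against 14.8 and 30.4 CPM in the nearest bin. An order built instead from fixed early and mid meiotic lists gave 28.0% young and 39.2% aged in its early bin. That gap was smaller when members had to lead by a factor of 2, with 32.3% and 34.6%, and after thinning, with 31.0% and 36.3%. The mitochondrial share followed the order, at 0.721% young and 0.617% aged in the nearest bin and at 1.27% and 1.18% in the furthest.

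Between the ages, 7.73% of 11397 genes were at least 1.5-fold higher in aged members and 5.19% at least 1.5-fold lower, and the median gene differed by 0.01 on the log2 scale. Of all calls 59.9% were higher. With TMM scaling over 4 class sums the median gene moved by 0.21 and 86.4% of calls were higher, while TMM over the pair compared, chosen after values were seen, gave 55.9%. TMM over the pair moved the median gene by -0.02. List medians below 0 by less than 0.21 turn above 0 under the scaling over 4 sums. Medians above 0 by less than 0.21 are smaller than that shift, which takes them further above 0.

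Aldh1l1, a folate enzyme (10-formyltetrahydrofolate dehydrogenase) at chr6:90486427-90600203 in GRCm38, had 257 counts in the young members and 4 in the aged, or 77.8 against 0.202 CPM, 385-fold lower in the aged library (95% interval 149 to 1423). Some count of it appeared in 52 of 107 young members and in 4 of 1208 aged ones. Later spermatocytes showed the same, at 93.4 and 0.391 CPM, while Leydig-rule cells did not, at 403.5 and 385.8 CPM. In cells with more spermatid than meiotic counts Aldh1l1 stood at 84.0 CPM young and 2.28 CPM aged. The difference was thus seen in both classes of spermatocyte and in these cells, and not in the Leydig-rule cells of the same libraries.

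The other 9 genes named as lower were Tnp2, Prm1, Tnp1, Ptgds, Prm2, Osbpl1a, Gstm1, Ide and Tomm20l. Prm1, a protamine of sperm chromatin, stood at 163.9 CPM young and 52.0 CPM aged. It, Prm2, Tnp1, Tnp2 and Ptgds belong to the limits of the rule, and the estimated free RNA was also higher in young members, at 5.84% against 3.19%. An estimate of free RNA was subtracted as an alternative. Since it was taken from Prm1, Prm2, Tnp1 and Tnp2 themselves, it does not test those genes. Under it Prm1 went from -1.66 to -2.76 on the log2 scale, Prm2 from -1.45 to -0.78, and Ptgds turned to 4.25, higher in aged members. Tnp1, Tnp2 and Gstm1 had too few counts left for a value. Gstm1, a glutathione transferase, stood at 75.4 and 32.8 CPM in members and at 27612 and 28121 CPM in Leydig-rule cells. Without a value under the subtraction, the part of Leydig RNA in the level of Gstm1 in members was not tested. Osbpl1a, an oxysterol-binding protein, stood at 75.4 CPM young and 28.3 CPM aged, and at 167.4 and 77.2 CPM in later cells. Ide, the insulin-degrading protease, stood at 493.1 CPM young and 277.4 CPM aged, and at 600.5 and 396.7 CPM in later cells. Both were lower in aged spermatocytes of either class.

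The genes named as higher in aged members included Maz, Ctnnb1, Dazl, Lig1, Tm2d3, Ube2e3, Adad2, Rad9b and Rnf2. Maz, a zinc finger transcription factor, stood at 25.7 CPM young and 64.1 CPM aged, a ratio of 2.49 (95% interval 2.00 to 3.14). Dazl stood at 41.5 and 90.4 CPM, a ratio of 2.18 (1.83 to 2.61), and Rad9b, a subunit of a DNA damage clamp, at 32.4 and 55.0 CPM, a ratio of 1.7 (1.39 to 2.09). In later spermatocytes Maz stood at 2.90 CPM young and 4.04 CPM aged, Dazl at 7.86 and 9.43 CPM and Adad2 at 9.29 and 14.6 CPM. When the ages were compared within the 3 bins of the rule's order, only 3, 5 and 2 of the 10 were called higher, from the nearest bin to the furthest, against 3.34%, 5.35% and 6.77% of all genes. Their median difference of 0.81 on the log2 scale became 0.31, 0.58 and 0.47. Adad2, among the 10, is in the sums that build this order, so the bins do not test its difference between the ages. Of the 10 lower genes, 9, 9 and 10 were called within the bins, against 2.71%, 4.40% and 6.44% of all genes. By the order from the fixed lists, 9, 3 and 10 of the higher genes were called within the bins, against 6.60%, 4.43% and 10.4% of all genes, and 10, 9 and 10 of the lower genes, against 3.89%, 4.34% and 7.47%. The higher genes thus differed less within bins of the rule's order, but not within the nearest and furthest bins of the list order. The lower genes lay apart in the bins of both orders. Both sets were chosen by their difference in these same cells, so the calls within bins are a description only. The shares of all genes are for that reason no test of them.

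**Figure D4:**
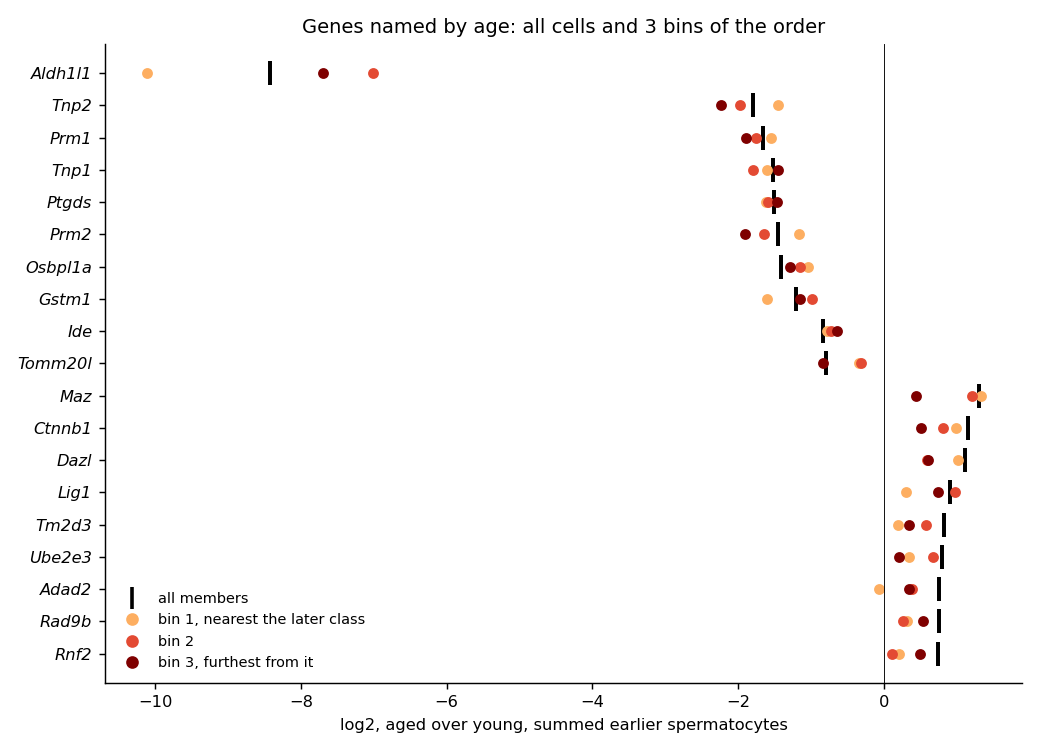
Log2 difference of aged minus young members for 19 of the 20 genes named by age, in all cells and in 3 bins of the rule's order. The lower genes stay below 0 in each bin, Tomm20l least so in bins 1 and 2, while the 10 higher genes have a median of 0.81 in all cells and of 0.31, 0.58 and 0.47 in the bins.

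Of 5 meiotic gene lists, 3 held more genes higher in aged members than the 7.73% of all genes, and 2 lay near it. Of 14 synaptonemal complex and axis genes 5 were higher and 0 lower. Their median was 0.43 on the log2 scale, against 0.01 over all genes. Sycp1, among the 5, and Sycp2, Sycp3 and Syce1 of this list are in the rule that chose the members. Of 14 crossover genes 6 were higher and 0 lower (median 0.46), among them Hfm1 at 41.2 CPM young and 67.3 CPM aged and Ccnb1ip1 at 13.3 and 23.0 CPM. Of 21 genes of sex chromosome silencing and DNA damage signalling 6 were higher (median 0.40). Topbp1, which brings the kinase ATR to unpaired chromosomes, stood at 30.3 and 46.1 CPM. Scml2, with 0 young and 65 aged counts, was also among the 6. Without the members of high X share 4 of 19 genes of this list were higher (median 0.37). Of 17 genes for breaks and strand exchange 2 were higher (median 0.14), near the 7.73% of all genes, among them Zcwpw1, a reader of PRDM9-marked histones, at 12.7 and 19.5 CPM. Of 26 piRNA genes 2 were higher (median 0.26), again near the 7.73% of all genes. They were Fkbp6, a co-chaperone of the pathway, at 27.0 and 45.4 CPM, and the rule gene Adad2. No gene of these 5 lists was lower.

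The medians were smaller when cells at a like place in the rule's order were compared. Within its 3 bins the crossover list had medians of 0.01, 0.11 and 0.20, the synaptonemal list of 0.17, 0.09 and 0.23, the silencing list of 0.04, 0.19 and 0.23 and the piRNA list of 0.05, 0.12 and 0.06. Sycp2, Tdrd1, Tdrd5 and Adad2 are in these lists and in the order. By the order from the fixed lists, the medians in its bins were 0.27, 0.16 and 0.26 for crossover genes, 0.17, 0.06 and 0.54 for synaptonemal genes, 0.24, 0.18 and 0.49 for silencing genes and 0.10, 0.08 and 0.34 for piRNA genes. In the early bin of that order 3 of these 4 lists were thus at or above their medians over all members. Hormad1, Smc1b, Stag3, Msh4 and Scml2 are in that order and in these lists. Leaving out the 30 members of high X share gave smaller changes than the bins of the rule's order: the crossover median was 0.39 and the synaptonemal median 0.39. Dazl then stood at 41.6 CPM young and 75.1 CPM aged. All these subsets were chosen after values were seen.

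**Figure D5:**
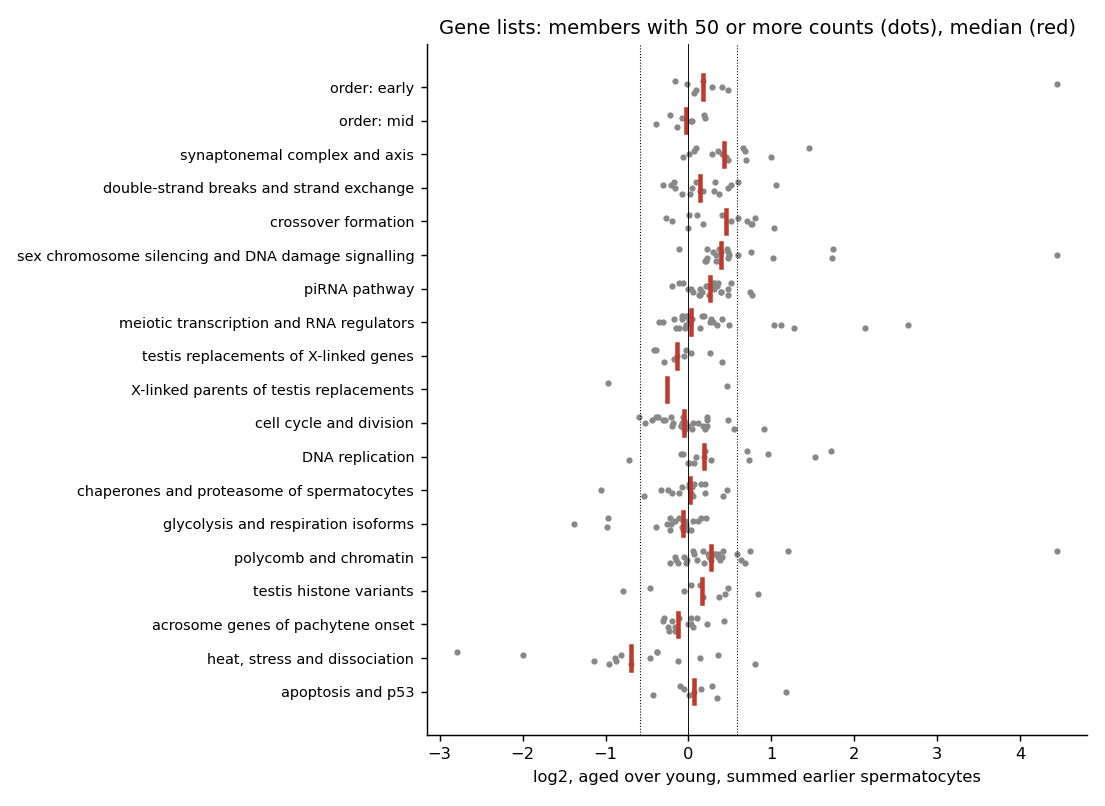
Log2 difference of aged minus young members for each gene list, with measured genes as grey dots, the list's median as a red mark and dotted lines at 1.5-fold. The medians of the synaptonemal (0.43) and crossover (0.46) lists lie above 0 and that of the heat and stress list (-0.69) below it, and the dot near 4.45 is Scml2.

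Heat, stress and dissociation genes leaned lower in aged members, with 8 of 15 lower, 1 higher and a median of -0.69. Over all genes 5.19% were lower and 7.73% higher. Zfp36, which destabilises inflammatory mRNAs, stood at 7.27 CPM young and 3.34 CPM aged, and Junb, an immediate early factor, at 12.7 and 6.98 CPM. Klf6, another immediate early factor, stood at 8.78 and 1.26 CPM, but of its 29 young counts 4 were left without the 1 young cell of high X share. Without all members of high X share Klf6 stood at 1.21 and 1.17 CPM. Zfp36, with 12 of its 24 young counts left, then stood at 3.64 and 2.65 CPM, no longer 1.5-fold lower. Klf2 went from 9.39 and 2.38 CPM to 2.43 and 1.84 CPM, while Junb stayed lower at 12.4 and 6.28 CPM. Of 12 measured genes of the list 4 were then lower (median -0.44). Scml2, an X-linked silencing factor, had 0 counts in young and 65 in aged members, and 9 aged counts without the cells of high X share. A single cell or a few cells thus set the values of Klf6 and Scml2 and much of those of Zfp36 and Klf2.

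Most genes that serve pachytene metabolism were not called between the ages. Of 11 testis copies of X-linked genes 0 were called (median -0.14). Of 23 glycolysis and respiration genes 0 were higher and 3 lower (median -0.06), against 7.73% and 5.19% of all genes. Of these 23 genes, 5 had a log2 value above 0. Ldhc stood at 5538 CPM young and 4751 CPM aged and Cox8c, a testis subunit of cytochrome oxidase, at 2715 and 2709 CPM. Gapdhs, the sperm form of glyceraldehyde phosphate dehydrogenase, was lower at 32.1 and 16.4 CPM. Of 19 chaperone and proteasome genes 1 was lower, Hspa1l at 9.99 and 4.85 CPM, while Hspa2, the chaperone needed for meiotic division in male mice, stood at 1570 and 1799 CPM. Of 30 cell cycle genes 1 was higher and 1 lower, Cdk4 at 9.39 and 17.8 CPM and Ccna1, a gene of the rule, at 176.6 and 117.1 CPM. Of 29 polycomb and chromatin genes 6 were higher and 0 lower (median 0.27), against 7.73% and 5.19% of all genes. Among the 6 were the maintenance DNA methyltransferase Dnmt1 at 48.5 and 78.0 CPM and Rnf2 at 38.2 and 64.3 CPM. They also held the rule gene Pcgf5 and Scml2, and without the members of high X share 4 of 28 were higher (median 0.24).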

How the data were processed

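The young and aged testis libraries were each deposited by the authors as a table of raw counts per cell and gene, with nothing normalized. Cell Ranger 2.11 and mm10 are named per the submitters' processing notes, while the aged file header names the BD Rhapsody pipeline 1.7.1 and STAR 2.5.2b. The young file has no such header, so whether both tables came from the same pipeline is not known, and a difference in pipeline cannot be told apart from age. Whether the counts are molecules is not given in the sources used here. Of 40184 young and 39087 aged gene columns, 36245 are shared.

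Members were picked by the stated rule, and counts were summed per class and library and divided by their total (CPM). With 1 library per age there is no test. A gene was called at 1.5-fold or more with 50 or more counts, and log2 values use a pseudocount of 0.5 counts. A floor is 3 counts. Intervals at 95% are exact Poisson, conditional binomial or Clopper-Pearson, and cover counting error only. Named genes are the 10 furthest apart in each direction among genes with 50 or more counts and 50 or more CPM in the higher group, without gene models, mitochondrial, ribosomal protein and globin genes. Between earlier and later cells they also had to be called in both libraries and not be in the rule. List genes at 50 or more CPM may be named too. Those named below 50 CPM were chosen after their values were seen. The members and lists were chosen with earlier results of these data known. Doublets were scored with the scrublet of scanpy 1.11.5 and left in, and edgeR 4.0.16 gave TMM factors only. Gene positions are from GENCODE M21 (GRCm38) and promoters from RefSeq. Scripts ran in python 3.11.15 with numpy 2.4.6, scipy 1.17.1 and pandas 2.3.3, and were tested on simulated data. Alternatives covered the cut, depth, doublets, free RNA, scaling and count minimum. Values of some genes are not reported here.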

Additional observations from a re-analysis of the deposited data

How the results depend on the processing

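No paired analysis was possible because there is 1 library per age and the labels give no replicate numbers. Of 112 alternative values of the 12 main results, 77 stayed within counting error or 1.5 times and 35 moved. These results are shares and counts, for which a turn of direction was not scored. With no count minimum the calls by age went from 881 higher and 591 lower to 3860 and 10419. These last numbers do not show that the balance between the ages turned. A pseudocount of 0.5 counts was added to sums with totals of 3301659 counts young and 19777382 aged. A gene with almost no counts can thus be called lower in aged members without a lower count there. In bin 2 of the rule's order, Sycp2l had 0 young counts, 1 aged count and a log2 value of -1.23. The cause of a move was not tested beyond what each alternative leaves out. With a lead by a factor of 2, the share of kept cells was 2.35% young and 23.9% aged, that of spermatocytes 8.82% and 40.8%, the X share 0.0784% and 0.0704%, and the early bin of the list order held 32.3% of young and 34.6% of aged members. With thinned cells, the young share of spermatocytes was 17.5%, the X share 0.108% and 0.102%, the early bin 31.0% of young and 36.3% of aged members, and 637 genes were higher and 507 lower in earlier cells. Without called doublets the aged X share was 0.0663%. TMM scaling gave 1780 genes higher and 279 lower by age, a minimum of 10 counts 2155 and 2139, and no minimum 3860 and 10419, or 6414 and 3422 between earlier and later cells. Bin 1 of the list order gave 556 and 328 of 8428 genes by age and bin 2 gave 397 and 389 of 8970. The number of genes measured differs with depth, bin and count minimum, so these counts cannot be compared as shares. Ordered by the rule's sums, 42.5% of aged members were in the early bin. With a minimum of 500 counts the aged shares were 25.7% of kept cells and 54.0% of spermatocytes, the X share 0.0767% and the early bin 42.4%. Without members of high X share the X share was 0.0637% and 0.0516%, and without gene models and pseudogenes 0.0389% and 0.0418%. Among 317 values for the 20 genes named by age, 53 moved and 1 turned (3 genes had no value with free RNA subtracted), Ptgds at 4.25 on the log2 scale with free RNA subtracted. The shallower aged members limit what a count of 0 in a single cell can show.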

Other observations

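DNA replication genes, which meiotic prophase does not need for copying the genome, were a mixed group in the earlier spermatocytes. Of 15 measured, 5 were higher and 1 lower in aged members, against 7.73% and 5.19% of all genes. Their median was 0.19 on the log2 scale, less than the 0.21 by which TMM scaling over 4 class sums moves the median gene upward. Mcm3, a subunit of the replicative helicase, stood at 2.12 CPM young and 7.43 CPM aged, Mcm5 at 2.73 and 8.29 CPM, and Mki67, a proliferation marker, at 15.7 and 26.4 CPM. Without the members of high X share 3 of 14 were higher and 1 lower (median 0.12).

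Acrosome genes, which build the enzyme cap of the sperm, varied widely in level, and 0 of 16 were called by age (median -0.13). Acr, the protease acrosin, stood at 419.8 CPM in the young members, at 388.0 in the aged, and at 561.2 and 565.7 CPM in later spermatocytes, while Spaca3, a sperm lysozyme-like protein, stood at 5.75 and 5.26 CPM in members and 21.9 and 17.2 CPM in later cells. Of 18 measured between earlier and later cells 2 were higher and 6 lower in earlier cells, against 22.2% and 17.1% of all genes. Spaca1, Spaca3 and Acrv1, among the 6, are in the rule. Of 10 testis histone variants 1 was higher and 1 lower by age (median 0.16), against 7.73% and 5.19% of all genes. Of 9 apoptosis and p53 genes 1 was higher and 0 lower (median 0.07), the higher being Bax at 2.12 and 5.11 CPM.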
